A study of Mus musculus with 12 samples.

Results

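The zinc finger genes Zfp608, Zfp609, Zfp703 and Zfp503 are members of 2 paralog pairs, Zfp608 with Zfp609 and Zfp703 with Zfp503, and are 4 of the 53351 genes in the deposited table. They were chosen by gene symbol and selected on the measured rise of Zfp608 and Zfp703 under Torin1 in this table, each together with its paralog, so every Torin1 value of the 4 genes below is a description and carries no test. All 4 passed the filter on low values. The libraries come from wild-type mouse cortical cells at E13.5, cultured overnight with bFGF and EGF (5 ng/ml each) and labelled as primary neural progenitor cells. Cells received either DMSO, the solvent, or 250 nM Torin1, an inhibitor of the growth kinase mTOR, for 2 h, and all of them were then given cycloheximide (100 ug/ml, 5 min), which freezes ribosomes on mRNA. Total mRNA came from 10% of a lysate and polysome mRNA from gradient fractions with more than 3 ribosomes, which gives 4 groups of 3 biological replicates, namely total DMSO, total Torin1, polysome DMSO and polysome Torin1. The labels do not say which embryos or cultures the replicates came from, so p-values measure the spread between these samples only.

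Zfp608 and Zfp609 encode large nuclear proteins with a C2H2 zinc finger. Zfp609 is known to bind the Integrator complex, which processes and terminates transcripts of RNA polymerase II, and the cohesin loader Nipbl in neural progenitors, and Zfp608 is known as a repressor of the Rag recombinase genes in thymocytes. Zfp703 and Zfp503 belong to the NET family of transcriptional repressors, which recruit Groucho/TLE co-repressors and histone deacetylases. Zfp503, also called Nolz1, is known from the developing striatum, and Zfp703 from mammary epithelium and breast cancer.

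The unit of the deposited numbers is not stated, and they were taken as relative abundances whose depth in reads is unknown, with sums per library of 14341674 to 19201406. Values below are rescaled abundances in parts-per-million (ppm), given per library in the order of replicates 1, 2 and 3, and differences are log2 folds with their standard error from limma. They are relative within a library, so a change in the whole amount of polysome mRNA was not measured, and levels are compared between groups for each gene and not between genes of different length. The 13 listed cortical progenitor markers summed to between 2999 and 3068 ppm in total DMSO, with none at 0 in all libraries, the 8 neuron markers to between 2867 and 2918 and the 11 endothelial, mural and meningeal markers to between 42.1 and 49.1. The 9 microglia and blood markers summed to between 888 and 943 ppm, with the haemoglobin gene Hba-a1 at 702 ± 26.4 ppm (SD, n = 3). In these bulk cultures, fewer cells of a type and less RNA per cell cannot be told apart. Replicate 2 of total Torin1 had 2061 ppm of Rn7sk, a small nuclear RNA, where the remaining 5 total libraries had 38.2 to 181. Without it the total folds of the 4 genes, given on the log2 scale, were 1.18 for Zfp608, -0.17 for Zfp609, 1.21 for Zfp703 and 0.89 for Zfp503.

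In total mRNA 3 of the 4 genes rose with Torin1 and Zfp609 did not pass. Limma called 7.48% of the 20240 genes tested in total mRNA at an adjusted p of 0.05, 3.32% higher and 4.16% lower, and since the choice used this contrast nothing is read from the members' count. In polysome mRNA the same 3 genes rose, and limma called 10.7% of genes, 4.40% higher and 6.27% lower. Groups without overlap, higher with Torin1, were found for 15.6% of genes in total and 11.0% in polysome mRNA, and lower for 17.7% and 13.4%. Higher calls made up 44.4% of calls in total and 41.2% in polysome mRNA, and scaling to the column total alone made the latter 89.8%. With the deposited values as they are the shares were 28.6% and 51.4%. Within pairs, Zfp608 and Zfp609 went apart, whereas Zfp703 and Zfp503 both went up.

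Zfp608 (ENSMUSG00000052713, chromosome 18, 54888045 to 54992591 in GRCm38.p6, the assembly of mm10) was at 22.2, 21.3 and 22.3 ppm in total DMSO and at 49.9, 50.2 and 49.3 in total Torin1. In polysome mRNA it was at 11.9, 12.1 and 10.8 ppm in DMSO and at 24.7, 30.9 and 25.4 in Torin1. Every Torin1 library lay above every DMSO library of its fraction. The log2 fold was 1.18 ± 0.09 in total and 1.21 ± 0.09 in polysome mRNA, which placed it at rank 22 and rank 20 from the top of 9350 expressed genes, those with a mean of at least 8 ppm. Among all 20240 genes tested it was at rank 759 and rank 667. A high rank here follows from the choice of the gene. The order of its levels was total Torin1, polysome Torin1, total DMSO and polysome DMSO, with no overlap between neighbours. RefSeq lists a noncoding gene, Gm4221, that overlaps its span, and the sources used here do not say whether reads were counted by strand.

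Its paralog Zfp609 (ENSMUSG00000040524, chromosome 9, 65691578 to 65827564) was at 33.6, 33.6 and 33.7 ppm in total DMSO and at 29.6, 31.0 and 30.2 in total Torin1. In polysome mRNA it was at 19.6, 19.5 and 18.7 ppm in DMSO and at 18.8, 20.5 and 14.5 in Torin1. The 3 total Torin1 libraries lay below the 3 total DMSO libraries, as did those of 17.7% of the genes tested, while the polysome groups overlapped. The log2 fold was -0.15 ± 0.10 in total mRNA and -0.12 ± 0.10 in polysome mRNA, and neither passed. With the 6 total libraries fitted alone the same total fold did pass, and without polysome Torin1 replicate 3 the polysome fold was 0.027. Both total groups stood above both polysome groups, and the 2 polysome groups did not differ beyond their spread.

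Zfp703 (ENSMUSG00000085795, chromosome 8, 26977336 to 26981462) was at 32.1, 43.7 and 36.7 ppm in total DMSO and at 90.1, 79.7 and 82.8 in total Torin1. In polysome mRNA it was at 33.2, 39.5 and 41.0 ppm in DMSO and at 83.6, 93.4 and 62.5 in Torin1. Torin1 libraries were above DMSO libraries in both fractions with no overlap. The order of its means was total Torin1, polysome Torin1, polysome DMSO and total DMSO, and the 2 fractions of a treatment did not differ beyond their spread. The log2 fold was 1.18 ± 0.15 in total and 1.06 ± 0.15 in polysome mRNA, at rank 23 and rank 36 of the expressed genes and rank 770 and rank 908 of all genes tested. Its spread in total DMSO was a coefficient of variation of 15.7%, against 2.60% for Zfp608, 0.219% for Zfp609 and 2.90% for Zfp503.

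Zfp503 (ENSMUSG00000039081, chromosome 14, 21983959 to 21989601) was at 6.26, 6.33 and 5.99 ppm in total DMSO and at 11.7, 10.8 and 11.3 in total Torin1. In polysome mRNA it was at 4.13, 4.55 and 4.87 ppm in DMSO and at 8.30, 8.16 and 6.41 in Torin1. The groups did not overlap in either fraction, and the log2 fold was 0.86 ± 0.12 in total and 0.74 ± 0.12 in polysome mRNA. The rule that chose the genes names Zfp608 and Zfp703 as strong risers, and the value of Zfp503 under the same contrast is likewise only described. The order of its levels was total Torin1, polysome Torin1, total DMSO and polysome DMSO, and its lowest polysome Torin1 library (6.41 ppm) was close to its highest total DMSO library (6.33 ppm). Its mean over the 12 libraries, 7.40 ppm, was just under the 8 ppm used for expressed genes.

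**Figure D1:**
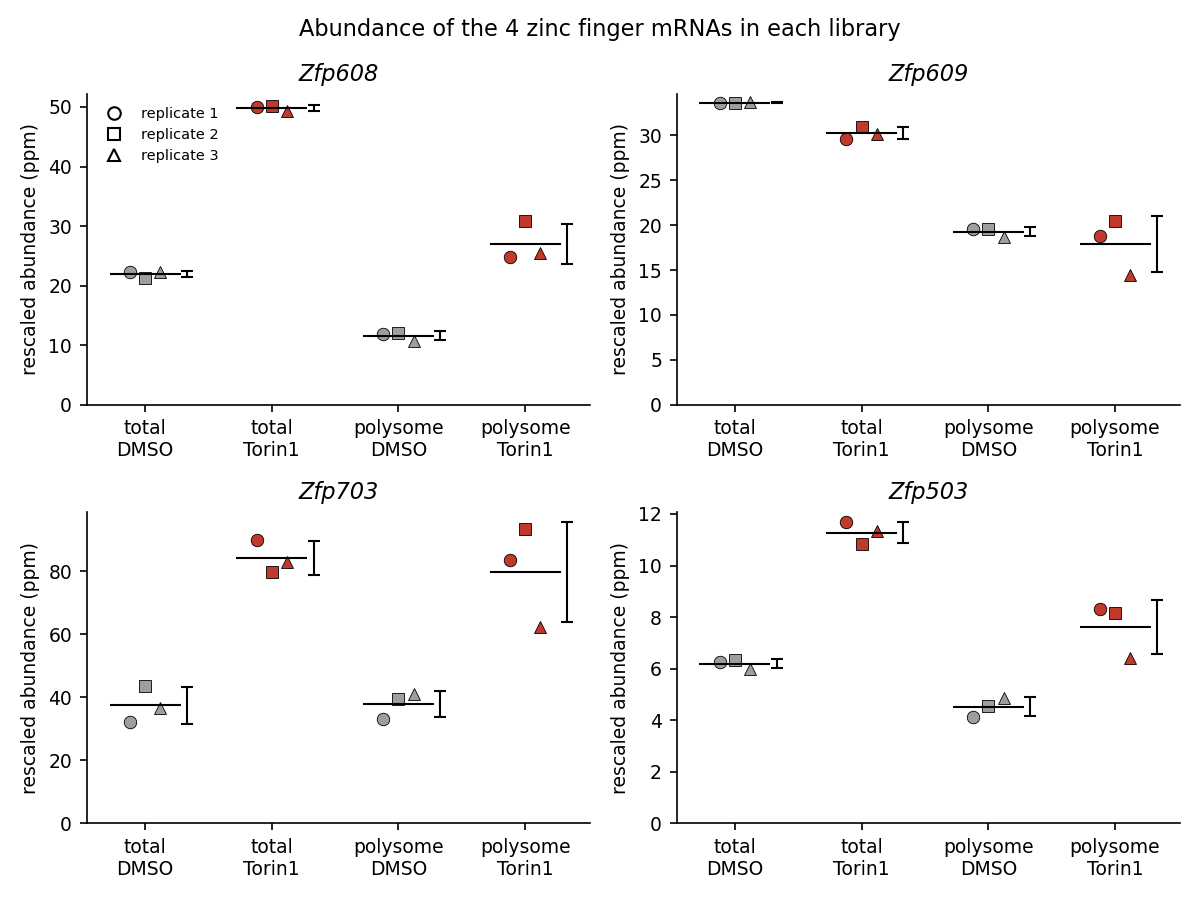
Rescaled abundance in ppm (y axis, from 0) of each gene in each of the 12 libraries, by group (x axis). Symbols mark the replicate number, horizontal lines the mean and error bars the SD (n = 3). In Zfp608, Zfp703 and Zfp503 the Torin1 libraries (red) sit above the DMSO libraries (grey) of the same fraction, and in Zfp609 they sit slightly lower in total mRNA and overlap in polysome mRNA.

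Of the 4 genes, Zfp503 is the one with a start-site window among the RefSeq promoter sequences used here (GRCm38.p6). The 250 bases before its annotated start, chr14:21989602-21989851 on the minus strand, are shown as the one stretch of regulatory sequence on hand for a gene of the pair that rose together, with CpG dinucleotides in capitals. They lie inside the span of A330001L22Rik, a noncoding gene that RefSeq places across this start.
Zfp503 upstream: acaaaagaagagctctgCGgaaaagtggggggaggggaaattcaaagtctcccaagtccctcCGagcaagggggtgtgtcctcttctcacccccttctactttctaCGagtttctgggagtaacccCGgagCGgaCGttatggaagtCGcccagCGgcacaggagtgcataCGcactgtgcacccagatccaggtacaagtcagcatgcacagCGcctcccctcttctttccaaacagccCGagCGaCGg
The stretch holds 13 CpGs. The whole window of 300 bases, which adds the 50 after the start, holds 19, against a median of 7 over 27025 windows of that length, and its GC content was 58.3% against a median of 52.7%. Of those windows 71.6% held fewer CpGs and 26.8% held more, so this number is common.

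Letters for 5 motifs were searched on both strands of that window and none was found. They were the forkhead core TGTTTAC, in 3.55% of all windows, the cAMP response element TGACGTCA, in 1.88%, the E-box core CACGTG, in 7.24%, the longer CLEAR E-box of lysosomal genes, which contains the E-box core, in 0.359%, and the serum response core, in 0.078%. Nor did the annotated transcript start of Zfp503 have the form of a terminal oligopyrimidine tract, taken as C followed by 4 pyrimidines, which 2.49% of windows had.

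For each gene the Torin1 folds of the 2 fractions were compared directly. The polysome fold minus the total fold was 0.03 ± 0.12 for Zfp608 (95% interval -0.24 to 0.30), 0.03 ± 0.15 for Zfp609 (-0.29 to 0.36), -0.12 ± 0.21 for Zfp703 (-0.58 to 0.34) and -0.12 ± 0.17 for Zfp503 (-0.49 to 0.26). None of the 4 was called on this difference, for which limma called 0.707% of genes, 0.0148% higher and 0.692% lower. The interval was widest for Zfp703. With scaling to the column total alone all 4 differences were positive, from 0.18 to 0.33, where the median of all genes was itself 0.29.

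**Figure D2:**
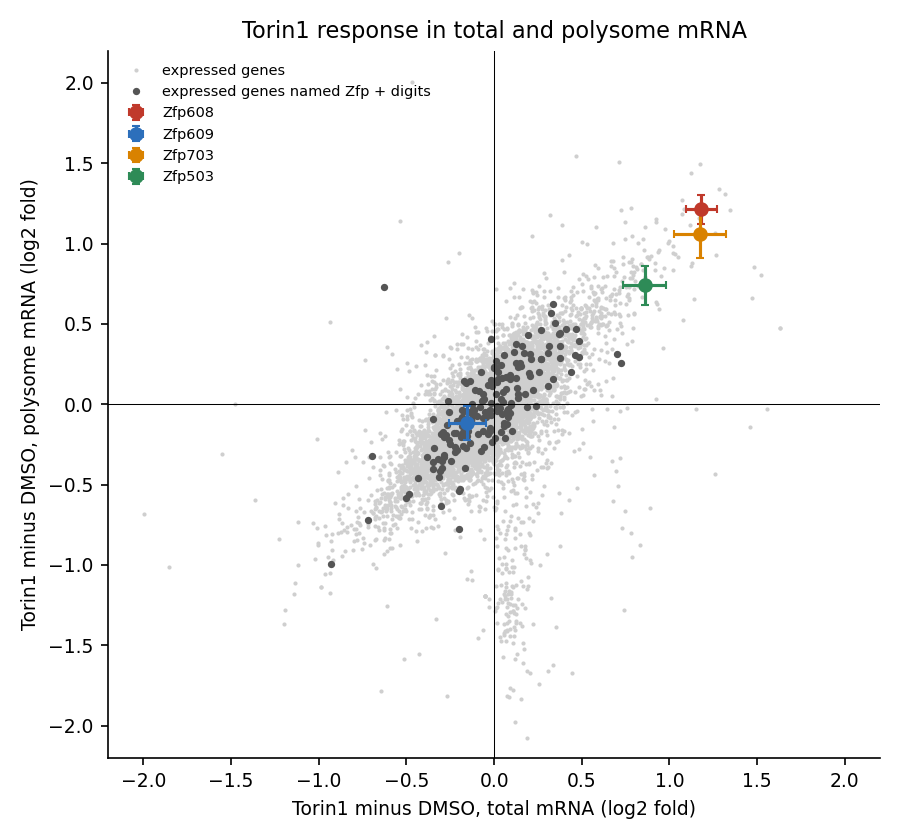
Log2 fold of Torin1 minus DMSO in total mRNA (x axis) against polysome mRNA (y axis), with expressed genes in light grey, expressed genes named Zfp with digits in dark grey and the 4 genes in colour with standard errors. Axes stop at 2.2 on either side, which leaves 18 expressed genes outside, and Zfp608, Zfp703 and Zfp503 lie at the upper right near equal folds while Zfp609 lies close to 0.

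The polysome against total comparison within a treatment was not used in choosing the genes, and it was tested. Zfp608, Zfp609 and Zfp503 were lower in polysome than in total mRNA in DMSO, and Zfp703 was not. Limma called 41.2% of genes in this comparison, 21.8% higher and 19.3% lower, and 27.4% lay above and 25.9% below without overlap, so a call is common here. Higher calls were 53.0% of calls, but 21.6% with scaling to the column total alone and 25.8% with the deposited values as they are. Zfp608 had a log2 fold of -0.92 ± 0.09 in DMSO (limma, adjusted p = 6.42e-06) and -0.89 ± 0.09 in Torin1 (adjusted p = 9.85e-06), being 1.89-fold and 1.85-fold lower in polysomes. Zfp609 had -0.80 ± 0.10 in DMSO (limma, adjusted p = 6.34e-05) and -0.77 ± 0.10 in Torin1 (adjusted p = 9.84e-05). Polysome libraries of both genes lay below total libraries in every replicate of both treatments. In comparison, 7.29% of expressed genes had a lower fold in DMSO than Zfp608 and 9.56% a lower one than Zfp609.

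Zfp503 had -0.45 ± 0.12 in DMSO (limma, adjusted p = 0.00937) and -0.57 ± 0.12 in Torin1 (adjusted p = 0.00235), again with no overlap of polysome and total libraries. Zfp703 had 0.02 ± 0.15 in DMSO (limma, adjusted p = 0.934, 95% interval -0.30 to 0.35) and -0.09 ± 0.15 in Torin1 (adjusted p = 0.663, interval -0.42 to 0.23), and its libraries overlapped. Its small difference in DMSO changed sign with each of the 3 other scalings and without total DMSO replicate 1, polysome DMSO replicate 2 or polysome DMSO replicate 3, and in Torin1 without polysome Torin1 replicate 3. In Torin1 limma called 39.8% of genes, 20.7% higher and 19.1% lower, and 23.9% lay above and 23.4% below without overlap. Higher calls were 52.0% of these calls and 38.9% with the deposited values as they are. The 349 tested genes named Zfp with digits had a median of -0.43 in DMSO and -0.36 in Torin1, against 0.00 and -0.02 for all genes, with 147 lower and 32 higher in DMSO. Scaling to the column total alone lowered the median of all genes in DMSO to -0.37, and Zfp608 was then at -1.33 and Zfp609 at -1.21.

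**Figure D3:**
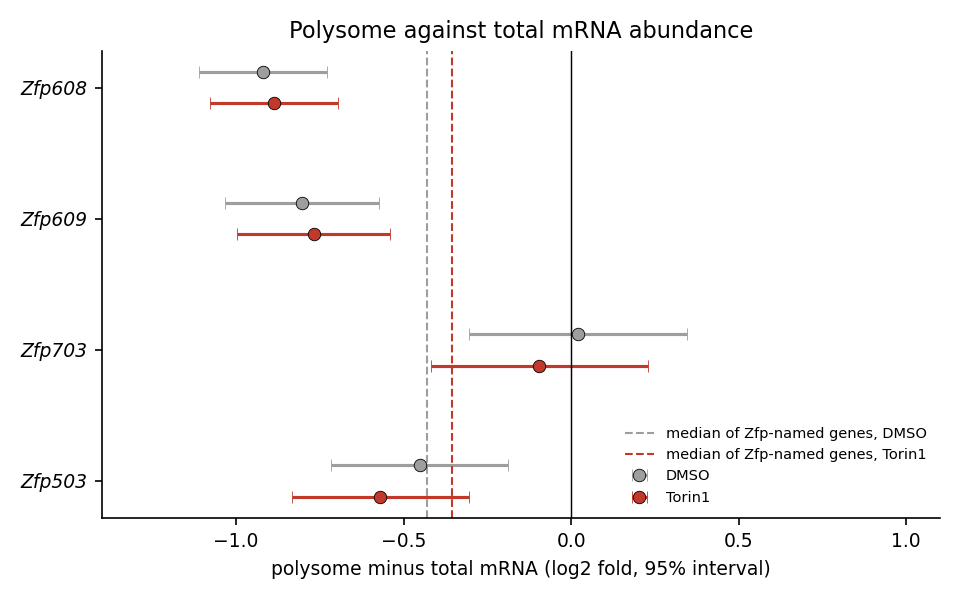
Log2 fold of polysome minus total mRNA (x axis) for each gene in DMSO (grey) and Torin1 (red), with 95% intervals from limma. Dashed lines give the medians of the 349 genes named Zfp with digits, and Zfp608 and Zfp609 lie to the left of both lines in both treatments while both intervals of Zfp703 include 0.

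The ratio of 2 paralogs within a library does not depend on how libraries are scaled. Set to 1 for its mean in total DMSO, the Zfp608/Zfp609 ratio was between 2.49 and 2.58 in total Torin1, between 0.883 and 0.949 in polysome DMSO and between 2.02 and 2.69 in polysome Torin1. The Zfp703/Zfp503 ratio was between 0.852 and 1.15 in total DMSO, 1.22 and 1.28 in total Torin1, 1.34 and 1.44 in polysome DMSO and 1.62 and 1.91 in polysome Torin1. Between these groups the first ratio differed mainly by treatment and the second by both treatment and fraction. Zfp608 and Zfp703 were chosen for their Torin1 rise and the ratios after seeing the values, so this is a description.

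Polysome mRNA held 1.39-fold more Zfp703 relative to Zfp503 than total mRNA did, in DMSO and in Torin1 alike, and the ratios did not overlap (two-sided exact permutation test, p = 0.1 in each, n = 3 against 3). For Zfp608 relative to Zfp609 the same comparison gave 0.922-fold in DMSO, with no overlap (exact permutation test, p = 0.1), and 0.921-fold in Torin1, with overlap (p = 0.5). The smallest p that 3 against 3 allows is 0.1, so none of these 4 comparisons can pass, and the adjusted values were 0.133 for the 3 without overlap.

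**Figure D4:**
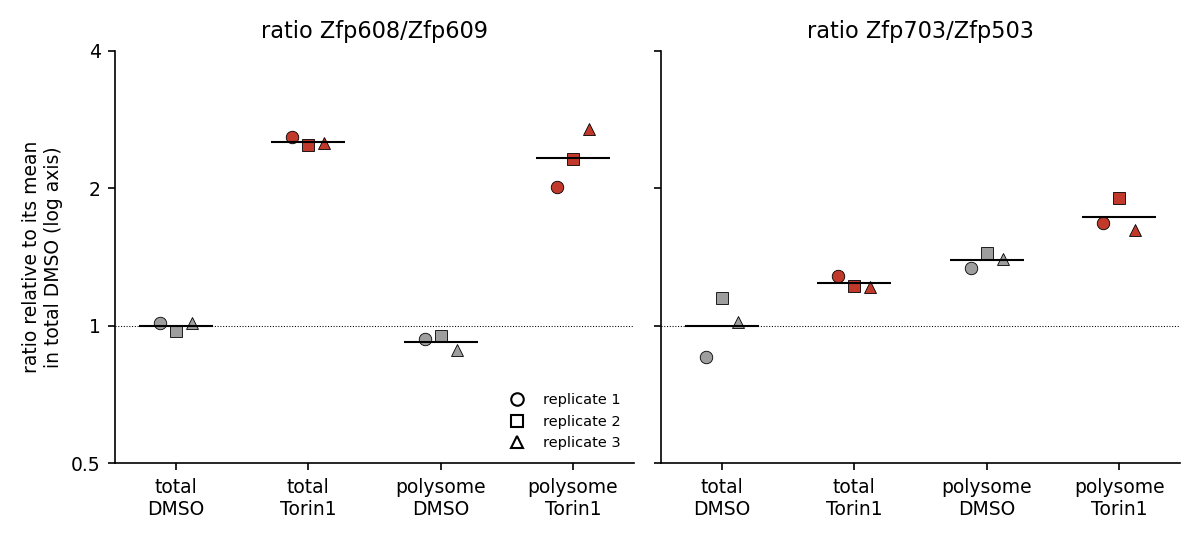
Ratio of the 2 paralogs of a pair in each library, relative to its mean in total DMSO (y axis, log scale), by group (x axis). Symbols mark the replicate number and lines the geometric mean of 3 libraries. The Zfp608/Zfp609 ratio is above 2 in every Torin1 library and near 1 in every DMSO library, while the Zfp703/Zfp503 ratio climbs in smaller steps to between 1.62 and 1.91.

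Genes that work with the 4 proteins were read from lists. These lists and the marker lists further below were chosen with earlier results of these data known. Their counts and p-values are therefore a description and no independent support. Among the co-repressor partners of Zfp703 and Zfp503, a list of 10 Groucho/TLE and class I histone deacetylase genes, 3 rose and 1 fell in total mRNA, and 3 rose and 1 fell in polysome mRNA. Over all genes tested, limma called 3.32% higher and 4.16% lower in total mRNA and 4.40% and 6.27% in polysome mRNA. These shares, here and for the lists below, are over 20240 genes, of which 9350 were expressed genes. Shares among genes as abundant as the listed ones are not given. The list's median log2 fold was -0.02 in total and -0.04 in polysome mRNA, against 0.00 and -0.01 for all genes. The risers were the Groucho co-repressor genes Tle1, Tle3 and Tle4 in both fractions, with Tle3 and Tle4 named here after their values were seen. Tle1 went from 44.1 ± 1.19 to 85.4 ± 3.00 ppm in total mRNA (log2 fold 0.95 ± 0.07, limma adjusted p = 4e-05) and from 46.6 ± 0.589 to 81.2 ± 6.75 in polysome mRNA (SD, n = 3). Tle3 had 0.67 ± 0.10 and Tle4 0.61 ± 0.07 in total mRNA. All 3 calls held in both fractions without each of the 6 libraries in turn. With the deposited values as they are, 1 gene of the list rose in total and 2 in polysome mRNA.

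The gene that fell, the deacetylase gene Hdac1, also named after its values were seen, had -0.25 ± 0.07 in both fractions, and its call in total mRNA was lost without any 1 of the 6 total libraries (limma, adjusted p up to 0.134, reached by leaving out total DMSO replicate 2). In polysome mRNA it was lost without 5 of the 6 (limma, adjusted p up to 0.107). Its polysome fold was 0.013 under column total scaling. In polysome DMSO against total DMSO, 5 of the 10 genes of this list were higher and 1 lower, with a median of 0.30. Over all genes limma called 21.8% higher and 19.3% lower there. Tle1 had 0.08 ± 0.07 (limma, adjusted p = 0.361), and the lower one was Tle4, with -0.35 ± 0.07 (adjusted p = 0.00111).

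Among the known partners of Zfp609, the 14 Integrator subunit genes had 0 that rose and 2 that fell in total mRNA and 0 and 1 in polysome mRNA, with medians of -0.12 and -0.07. The shares called over all genes were 3.32% higher and 4.16% lower in total mRNA and 4.40% and 6.27% in polysome mRNA. At an unadjusted p under 0.05 the Integrator counts were 0 and 5 in each fraction, where 9.57% of all genes were higher and 11.6% lower in total mRNA and 10.8% and 13.8% in polysome mRNA. With scaling to the column total alone 3 rose and 1 fell in polysome mRNA, with a median of 0.19. The subunit gene Ints13 went from 43.6 ± 2.17 to 29.0 ± 2.31 ppm in total mRNA (log2 fold -0.59 ± 0.08, limma adjusted p = 0.00117) and had -0.56 ± 0.08 in polysome mRNA. The other was Ints5, named after its values were seen, with -0.36 ± 0.09, a call lost without any 1 of the 6 total libraries (limma, adjusted p up to 0.113). Of the 10 cohesin, loader and release genes 0 were called in total mRNA by limma at an adjusted p of 0.05 and 1 at an unadjusted p under 0.05, and Rad21, the cleaved cohesin subunit gene, had 0.10 ± 0.06. In polysome mRNA 2 rose. They were the ring subunit gene Smc1a, from 35.3 ± 2.21 to 59.0 ± 7.60 ppm (log2 fold 0.73 ± 0.09, limma adjusted p = 0.000321), and Smc3, named after its values were seen, with 0.34 ± 0.08, a call lost without polysome DMSO replicate 2 (adjusted p = 0.0508). Without polysome Torin1 replicate 1 the count was 5.

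In DMSO, 6 of these 10 cohesin genes were lower in polysome than in total mRNA and 0 higher, with a median of -0.99. Over all genes, limma called 19.3% lower and 21.8% higher in this comparison. The loader gene Nipbl, singled out as the known partner of Zfp609 after its values were seen, had -1.91 ± 0.15 (limma, adjusted p = 2.15e-06).

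Of 19 ventral forebrain and striatal transcription factor genes, the setting in which Zfp503 is best known, 6 rose and 0 fell in total mRNA and 8 rose and 0 fell in polysome mRNA, with medians of 0.36 and 0.46. Over all genes tested, limma called 3.32% higher and 4.16% lower in total mRNA and 4.40% and 6.27% in polysome mRNA. Sp8, which encodes a transcription factor of the Sp family, went from 15.8 ± 1.66 to 29.8 ± 1.52 ppm in total mRNA (log2 fold 0.92 ± 0.11, limma adjusted p = 0.000603) and had 1.13 ± 0.11 in polysome mRNA. Without 1 of the 6 libraries the risers numbered 3 to 5 in total mRNA, being 3 without total DMSO replicate 1, total DMSO replicate 3 or total Torin1 replicate 1. With scaling to the column total alone the risers were 2 in total and 14 in polysome mRNA, and with the deposited values as they are 1 and 2. In polysome mRNA they numbered 5 without polysome DMSO replicate 1, polysome DMSO replicate 3 or polysome Torin1 replicate 2. The list summed to between 468 and 470 ppm in total DMSO and between 554 and 584 in total Torin1.

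Some markers of other cell types also rose with Torin1, and most did not pass. Over all genes tested, limma called 3.32% higher and 4.16% lower in total mRNA and 4.40% and 6.27% in polysome mRNA. The endothelial, mural and meningeal markers summed to between 66.1 and 79.8 ppm in total Torin1, above their range in total DMSO. Of these 11 markers 4 rose and 0 fell in total mRNA and 7 did not pass, with the list median at 0.47. The collagen gene Col1a1 had 1.11 ± 0.14 (limma, adjusted p = 0.000783), a call that held without each of the 6 total libraries. The count did not hold, being 2 without total DMSO replicate 2 or 3 or total Torin1 replicate 1 or 2, and 1 without total DMSO replicate 1 or total Torin1 replicate 3. It was 3 under column total scaling and 1 with the deposited values as they are. In polysome mRNA 3 rose and 0 fell, with Col1a2 at 1.05 ± 0.15, and the count was 2 without polysome DMSO replicate 1 or 2, 5 under column total scaling and 2 with the deposited values. None of the 11 was listed at 0 in all libraries.

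Limma called 3.32% of all genes higher in total and 4.40% in polysome mRNA. Of the 13 cortical progenitor markers 4 rose and 0 fell in total mRNA, with the Notch target Hes1 at 0.66 ± 0.10, and 6 rose and 0 fell in polysome mRNA, with the proneural Neurog2 at 0.65 ± 0.10. The risers in total mRNA were 2 under column total scaling and 0 with the deposited values as they are, and 3 or 4 without any 1 library. In polysome mRNA they were 7 and 3 under those scalings, and 4 to 7 without 1 library, with 1 marker lower without polysome Torin1 replicate 3. Of the 8 neuron markers 2 rose and 0 fell in each fraction, with Neurod1 at 0.77 ± 0.07 in total mRNA, a call that held without each library. In total mRNA the count was 1 without total DMSO replicate 1, total DMSO replicate 3 or total Torin1 replicate 3, and 1 under column total scaling and with the deposited values. In polysome mRNA it was 6 under column total scaling, 1 with the deposited values and 3 without polysome Torin1 replicate 1. Without polysome Torin1 replicate 3 it was 3 higher and 1 lower.

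Of the 9 microglia and blood markers limma called 0 in either fraction at an adjusted p of 0.05. Over all genes it called 7.48% in total and 10.7% in polysome mRNA. At an unadjusted p under 0.05, 1 marker rose in total and 2 in polysome mRNA, where 9.57% and 10.8% of all genes were higher. The list medians were 0.22 and 0.30, and counts from 9 genes cannot show that these markers were unchanged. Hba-a1 had 0.14 ± 0.09 in total mRNA. Under column total scaling 2 rose in polysome mRNA. The part of these cell types in the members' values was not tested.

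**Figure D5:**
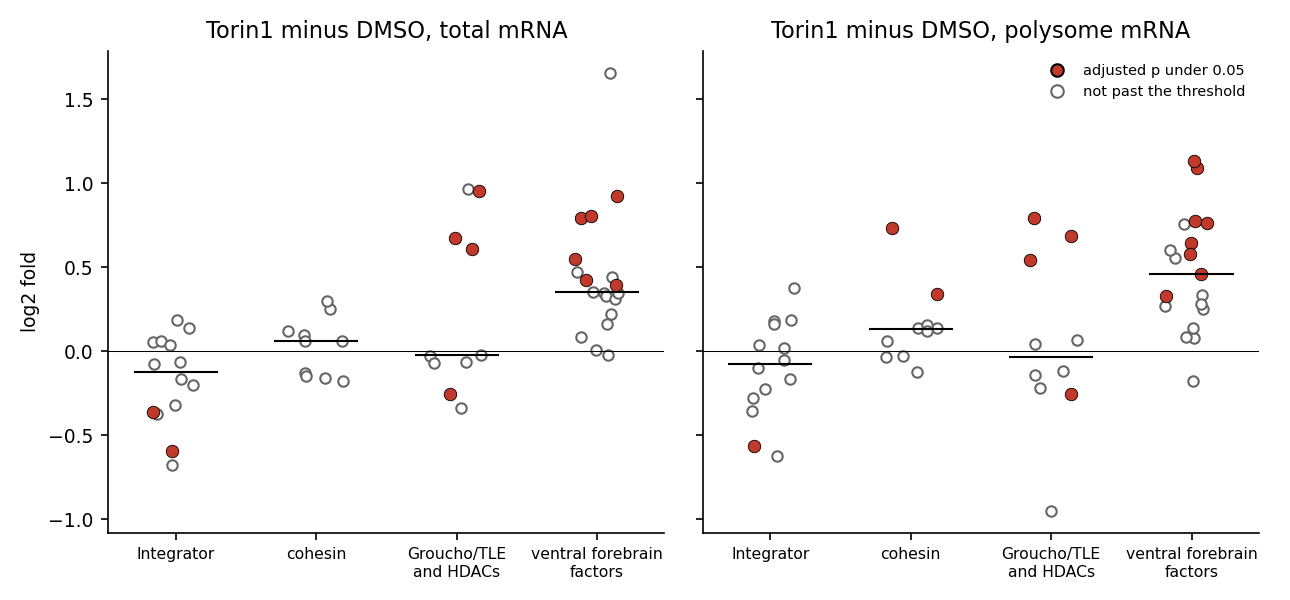
Log2 fold of Torin1 minus DMSO (y axis) in total mRNA (left) and polysome mRNA (right) for each gene of 4 lists (x axis). Filled points passed an adjusted p of 0.05 in limma, open points did not, and lines give list medians. The 3 high filled points of the Groucho/TLE list are Tle1, Tle3 and Tle4, and the ventral forebrain list has 6 filled points at left and 8 at right, all above 0.

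The genes most like each member were taken by Pearson's r of log2 abundance over the 12 libraries, among 8818 named expressed genes. The points share libraries and their scaling, so r is a description. For Zfp608 the 5 highest were Nrp2, a semaphorin co-receptor gene (0.996), the proneural Neurod1 (0.993), the ephrin ligand gene Efnb2 (0.990), the synaptic adhesion gene Slitrk1 (0.989) and Cxxc4, a Wnt inhibitor gene (0.989). Nrp2 averaged 14.5 ppm in total DMSO and 8.18 in polysome DMSO, with Torin1 log2 folds of 0.94 in total and 0.96 in polysome mRNA. Its likeness to Zfp608 in treatment and fraction follows from its choice by r.

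For Zfp703 they were the antiproliferative Btg1 (0.980), the receptor kinase feedback inhibitor gene Spry1 (0.977), Tle1 (0.977), the POU factor gene Pou3f1 (0.967) and Gas1, a Hedgehog co-receptor gene (0.963). Spry1 averaged 7.55 and 18.2 ppm in total mRNA and 7.81 and 16.5 in polysome mRNA, for DMSO and Torin1. For Zfp503 they were Tle4 (0.977), the AP-1 subunit gene Fosl2 (0.976) and Sp9 (0.975), and for Zfp609 the splicing factor gene Sf3b3 (0.998), the histone demethylase gene Kdm3b (0.993) and the Polycomb-related Asxl1 (0.991). Sf3b3, picked for its likeness to Zfp609, differed mainly between fractions, with averages of 76.0 and 70.3 ppm in total and 47.9 and 46.6 in polysome mRNA. Between members, r over the 12 libraries was 0.968 for Zfp608 and Zfp503, 0.854 for Zfp703 and Zfp503 and 0.457 for Zfp608 and Zfp609, values that hold the Torin1 rise used to choose the genes. For deviations from the group means, which do not hold it, r was 0.054, 0.813 and 0.581 in the same order.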

How the data were processed

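The programs named in the submitters' processing notes are STAR 2.7.9a and HTSeq 0.6.0, beside the genome build mm10. The deposited table gives a signal per gene and library, and the authors' way of scaling it was not given in the sources used here. It holds 12 sample columns and 0 others. Samples were grouped by title, and the columns named transcription were taken as total mRNA.

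Each library's signal was rescaled by its sum and by a trimmed mean of log ratios (own code, trimming 0.3 of ratios and 0.05 of abundances), then brought to the average sum. Testing covered the 20240 genes at or above a deposited 1 in no fewer than 3 libraries. Group means of log2(value + 1) were compared with limma 3.58.1 (R 4.3.3), using every library and 4 groups, and p-values were adjusted by Benjamini-Hochberg across all tested genes at 0.05. Folds on this scale understate changes of very low genes. The fit was tested on simulated data. The genes, lists and motifs were chosen with earlier results of these data known, and the paralog ratios after seeing the values. Named list genes are those with the largest called fold of each list in total and in polysome mRNA, or the most abundant where none passed, and those most like each gene by correlation. Promoter windows come from RefSeq (GRCm38.p6), which held 1 of the 4 genes. Results were recomputed with 3 more scalings, changed filters, 0.1 as the pseudocount, smaller fits, blocks and each library left out.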

Additional observations from a re-analysis of the deposited data

How the results depend on the processing

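Under 14 alternatives, Zfp608 and Zfp703 were called in both Torin1 comparisons in all 14 and Zfp503 in 13. Zfp503 was missing in total mRNA with the deposited values as they are and in polysome mRNA with the compared groups alone. Because the genes were chosen on these contrasts, the counts show only how calls depend on processing and are no support for the rise. The polysome against total calls of Zfp608, Zfp609 and Zfp503 held in 15 of 15 alternatives, with adjusted p up to 0.0412 for Zfp503 in DMSO without 1 library (limma). Because the values are not whole numbers and their unit is not stated, count models were not run.

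With scaling to the column total alone, total Torin1 calls numbered 841. The polysome folds were then 1.48 (Zfp608), 0.15 (Zfp609), 1.32 (Zfp703) and 1.00 (Zfp503), and the polysome minus total differences 0.33, 0.33, 0.18 and 0.18. Zfp703 in polysome against total DMSO reversed to -0.39, and with median ratios to -0.019, and Hdac1 in polysome mRNA reversed to 0.013. With the deposited values as they are, calls numbered 360 in total and 562 in polysome mRNA and 44 for the difference between them. The total folds were 1.06 (Zfp608) and 0.73 (Zfp503), the differences 0.21 (Zfp608), 0.21 (Zfp609) and 0.057 (Zfp503), and Zfp703 in polysome against total DMSO reversed to -0.29. With the compared groups alone, calls numbered 2567 in total and 510 in polysome mRNA. The cause was not tested.

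Without 1 library, calls ran from 720 to 888 in total mRNA, from 1278 to 2888 in polysome mRNA and from 104 to 232 for the difference, the highest of the last 2 without polysome Torin1 replicate 3. Zfp609 then ran from -0.22 to 0.027 in polysome mRNA and from -0.068 to 0.18 for the difference. Zfp703 in polysome against total mRNA ran from -0.086 to 0.14 in DMSO and from -0.22 to 0.072 in Torin1.

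With the replicate number as a replicate block, calls numbered 1286 in total and 1977 in polysome mRNA, and with a replicate block per presumed culture the difference had 92. Deviations of same-numbered libraries correlated between -0.24 and 0.22, and those of differently numbered libraries between -0.33 and 0.25. With 3 libraries per group this cannot decide whether same-numbered libraries came from the same material, and the labels do not say.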

Other observations

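Genes named Zfp with digits are a class by name and hold many unrelated proteins. Of the 349 tested, 7 rose and 9 fell in total mRNA and 11 rose and 12 fell in polysome mRNA, with medians of -0.03 and 0.01. The share called was 4.58% in total and 6.59% in polysome mRNA, below the 7.48% and 10.7% of all genes. In both fractions the risers include Zfp608, Zfp703 and Zfp503, which came in through the choice. Beside Zfp608, Zfp703 and Zfp503, those that rose in total mRNA were Zfp784 (log2 fold 0.74 ± 0.18), Zfp358 (0.38 ± 0.08), Zfp677 (0.88 ± 0.24) and Zfp408 (0.31 ± 0.08), all named after their values were seen. Zfp784 had 1.23 ± 0.18 in polysome mRNA (limma, adjusted p = 0.00104) at a mean of 4.99 ppm, and Zfp358 averaged 49.4 ppm. Of their calls in total mRNA, those of Zfp677 and Zfp408 held in 0 of the 6 fits that left out 1 total library, that of Zfp784 in 1 and that of Zfp358 in 2, and under other scalings each held with median ratios alone (limma). The polysome call of Zfp784 held without each of the 6 polysome libraries. In total mRNA the class had 3 or 4 risers and 4 to 7 fallers without any 1 library, 3 and 6 under column total scaling and 2 and 5 with the deposited values as they are. Scaling to the column total alone gave 65 higher and 1 lower in polysome mRNA, where the median of all genes moved to 0.23. Without polysome Torin1 replicate 1 the polysome counts were 32 and 15, and without polysome Torin1 replicate 3 they were 11 and 25.

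Within groups, the deviations of Zfp703 and Zfp503 from their group means had r = 0.813 over the 12 libraries, those of Zfp609 and Zfp503 0.698, those of Zfp609 and Zfp703 0.637, those of Zfp608 and Zfp609 0.581, those of Zfp608 and Zfp703 0.203 and those of Zfp608 and Zfp503 0.054, given as descriptions, since the libraries share a scaling. In polysome Torin1 the library of replicate 3 was the lowest for Zfp609, Zfp703 and Zfp503 and not for Zfp608.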
